A study of Mus musculus with 8 samples.

Results

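Endoplasmic reticulum (ER) stress genes were examined in C57BL/6J Min/+ mice, in RNA of the small intestine. These mice carry a truncating mutation in Apc and develop intestinal adenomas. The 10 genes were Xbp1, Atf4, Ddit3, Trib3, Hspa5, Hsp90b1, Sdf2l1, Pdia4, Dnajb9 and Herpud1. They were found through the accessions of 12 probes, out of 39429 probes for 32540 genes or unnamed accessions on the array. All 10 were among the 21307 genes that passed the filter on dim probes, and all 12 probes were well above background on each of the 8 arrays.

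Total RNA was hybridised to single-colour Agilent arrays, 2 for each combination of diet and sex, with RNA of 1 to 3 mice on an array. All mice carried the Min allele, and no wild-type mice were among the samples. Controls ate the semisynthetic AIN-93G diet without modification. The Western-type diet was AIN-93G changed to be rich in fat and poor in fibre, vitamin D, calcium and folate, and milk supplied 66.4% of its fat while oils of rapeseed and sunflower supplied the other 33.6%. The labels give a feeding experiment of 18 months, a long time for mice with this allele whose unit could not be checked, and no age of the mice. Whole small intestine was extracted, so fewer cells of a type and less RNA per cell cannot be told apart. Whether the arrays of a group came from separate mice is not in the labels. The p-values therefore measure only the spread between arrays, which may be partly technical.

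The ER folds secreted and membrane proteins, and unfolded proteins in its lumen set off the unfolded protein response. Of its 3 sensors, Ire1 splices the Xbp1 mRNA into the form that encodes an active transcription factor, Perk phosphorylates eIF2 alpha and so favours translation of Atf4, and Atf6 is cut by proteases into a transcription factor. Atf6 and spliced Xbp1 raise chaperones and degradation factors, while Atf4 raises Ddit3 (Chop) and Trib3. In the intestine, Paneth and goblet cells and plasma cells carry a heavy secretory load and depend on Xbp1. The arrays measured total transcript at each probe, not splicing, translation or protein.

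Promoters of the chaperone genes are known for the ER stress response element, to which Atf6 binds together with the CCAAT-binding factor NF-Y. The following stretches, from the RefSeq promoter table (GRCm38.p6), are those members in which the searched letters occurred, with Creld2, a gene outside the 10 whose signal followed Hspa5 most closely among the other ER folding and transport genes listed. Capitals mark the fixed letters of the element (CCAAT and CCACG with 9 bases between them), or in Herpud1 of a shorter element (ATTGG and CCACG with 1 base between them), on either strand, and each stretch reads 5′ to 3′ on the strand of the gene and ends before its annotated start.
Hspa5, chr2:34772000-34772068, plus strand: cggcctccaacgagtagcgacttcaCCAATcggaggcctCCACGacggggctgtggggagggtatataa
Hsp90b1, chr10:86705508-86705681, minus strand: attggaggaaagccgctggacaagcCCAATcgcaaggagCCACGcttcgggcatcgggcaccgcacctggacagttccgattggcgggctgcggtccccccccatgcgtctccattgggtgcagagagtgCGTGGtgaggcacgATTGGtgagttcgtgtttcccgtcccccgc
Creld2, chr15:88819495-88819563, plus strand: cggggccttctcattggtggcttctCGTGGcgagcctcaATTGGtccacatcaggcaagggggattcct
Herpud1, chr8:94386352-94386412, plus strand: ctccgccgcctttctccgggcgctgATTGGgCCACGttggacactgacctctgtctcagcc

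All 10 members had an entry in the promoter table, whose windows run from 250 bases before to 50 bases after the annotated gene start. The longer element occurred in 2 members, Hspa5 and Hsp90b1, and in 39 of 32851 windows (0.119%). In Hspa5 it ended at position -47 from the gene start, and Hsp90b1 held it on both strands, ending at positions -194 and -89. The shorter element occurred in 12 windows (0.0365%), among them Herpud1, where it ended at position -42. With at most 1 of the 10 fixed letters of the longer element changed, 5 of the 10 members held it, adding Ddit3, Herpud1 and Pdia4, against 1.5% of all windows. The XBP1-bound element TGACGTGG, searched on both strands, was in 0 of the 10 members and 0.676% of windows, and TGATGCAA, the core of the element bound by Atf4, was in Herpud1 alone among the members and in 0.895% of windows. These are matches of letters in a fixed window, not measured binding.

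Before the members are compared, 4 arrays need mention. On the array labelled Control female 1, the Y-linked Ddx3y and Eif2s3y had log2 levels of -0.46 and 1.90, within or above the range of the male arrays (-1.04 to -0.67 and 1.75 to 2.45), while on the other female arrays they were -6.91 or lower and -5.58 or lower. Its deposited file is also named with the abbreviation of the Western-diet files. Its log2 level of the enterocyte marker Sis was 7.85, among the other control arrays (7.64 to 7.94) and above the Western arrays (6.60 to 6.96). Sis was picked for its difference between the labelled diets, and the diet label of this array was not tested. The labelled group of the array was used here, and diet differences that moved without this array are given with the results. Control female 2 stood apart from all others on the first principal component (-146 against -1.57 to 33.2), with 75.6% of probes well above background against 55.1% to 61.9%. On Control male 1, 10 smooth muscle markers lay on average 2.98 log2 units above their mean over the arrays, against -1.22 to 0.15 elsewhere, and 8 fibroblast markers 2.49 above, against -0.80 to 0.33. On Western female 2, 6 fat cell markers lay 3.90 above their mean, against -1.28 to 0.64 elsewhere. All 14 enterocyte markers were well above background on each array. Slide 1 held replicate 1 of every group, slide 2 Western male 2 alone and slide 3 the rest.

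The first comparison was between the diets. Transcript signals of the ER stress genes on both diets overlapped (for Atf4 without Western female 2), and none of the 10 passed the test. Most genes overlapped likewise: of all genes measured on every array, 0.864% had each Western array above each control array and 2.29% each below. Values below are log2 signals relative to the 75th percentile of the array, called log2 levels, and differences are Western minus control averaged over the sexes, with their standard error (SE). By limma, 0 of 10 members had an adjusted p under 0.05 (background 0% of 21307 genes) and 0 of 10 an unadjusted p under 0.05 (background 4.27%, 910 genes). Of those 910 genes 15.2% were higher on the Western diet, but 60.3% of the 759 were after quantile normalization, which moved the median difference of all genes by 0.10. Without the library labelled Control female 1, 3190 genes had an unadjusted p under 0.05, and no member did. Differences of the members ran from -0.39 (Ddit3) to 0.34 (Herpud1), with a median of 0.05 against -0.06 over all genes tested. The difference was above 0 for 8 members, against 40.5% of all genes. Shares of all genes given here and below include the atypical Control female 2. On that array 63.8% of all genes lay above their mean over the arrays, against 40.7% to 52% on the others. Without Control female 2 the median diet difference was 0.09 over the members and -0.03 over all genes.

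**Figure D1:**
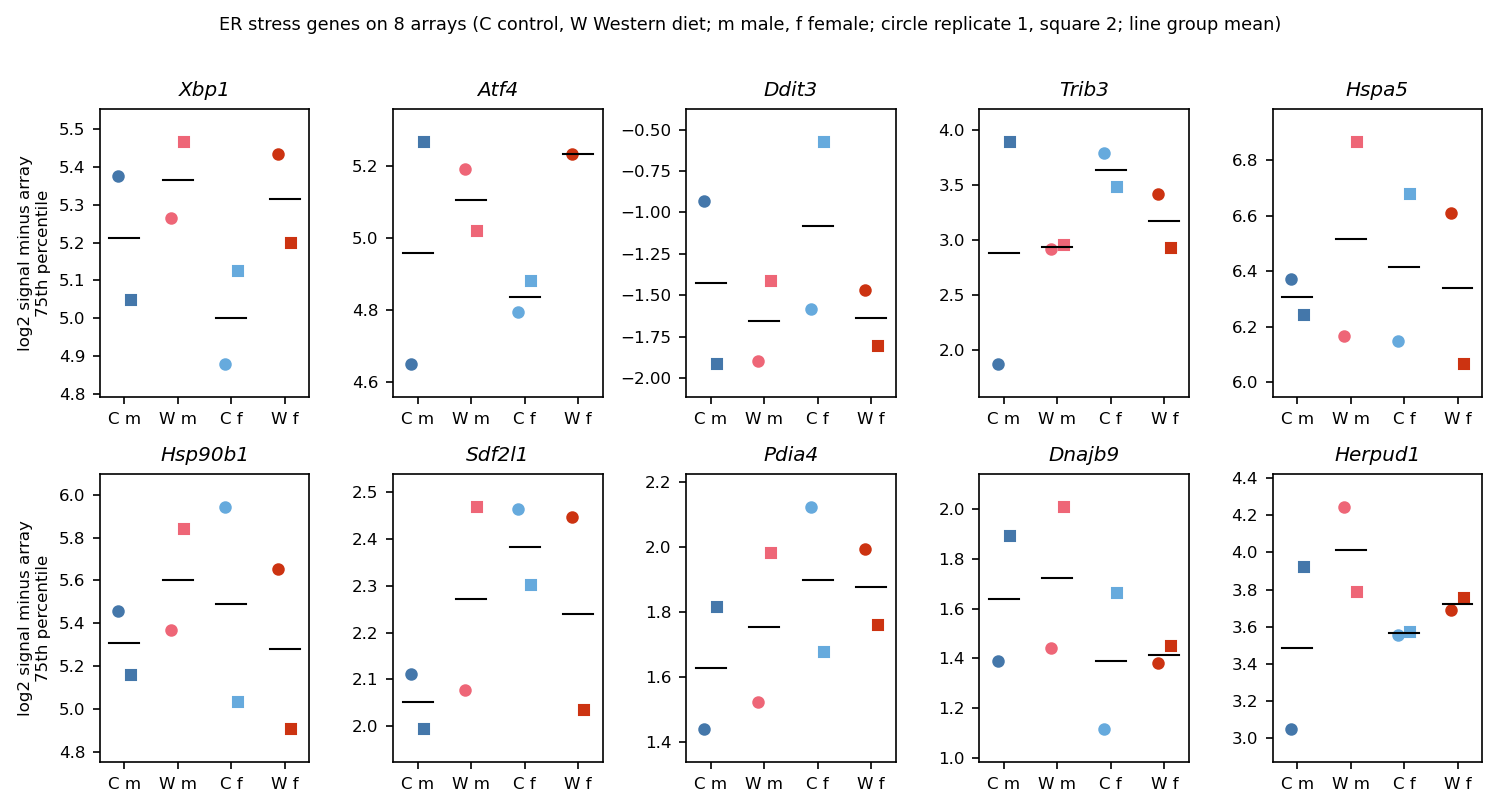
Log2 level (relative to the array's 75th percentile) for each of the 10 genes (y axis, a scale of its own for each gene), by group on the x axis. Circles are replicate 1, squares replicate 2 and lines group means (Atf4 has no value on Western female 2). The symbols of control and Western-diet arrays overlap for each gene.

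Xbp1 encodes the transcription factor downstream of Ire1. In controls its log2 level was 5.37 and 5.05 in males, 4.88 on the library labelled Control female 1 and 5.12 on Control female 2. On the Western diet it was 5.26 and 5.47 in males and 5.43 and 5.20 in females. Control male 1 lay above 2 of the 4 Western arrays, and the other 3 control arrays lay below all of them. The difference was 0.23 ± 0.16 SE (limma adjusted p = 0.995, 95% interval -0.17 to 0.63), or 1.18-fold. Without the library labelled Control female 1 it was 0.17.

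Atf4, the transcription factor downstream of Perk, is regulated largely through its translation, which arrays do not see. Its brighter probe had log2 levels of 4.65 and 5.27 on the Control male arrays, and 4.80 and 4.88 on the arrays labelled Control female. It measured 5.19 and 5.02 in Western males and 5.23 on Western female 1. The spot on Western female 2 was marked as non-uniform by the scanner software and left out of the fit, so this group had 1 array. The difference was 0.27 ± 0.22 SE (limma adjusted p = 0.995), but 0.02 ± 0.27 SE with the marked spot kept. That spot read 4.25, the lowest of the 8, and keeping it turned the difference in females from 0.40 to -0.10. The second Atf4 probe, with log2 levels between -2.16 and -1.19, had a difference of -0.22 ± 0.28 SE. Thus no direction for Atf4 held on both probes.

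Ddit3 encodes Chop, a transcription factor of stress-induced cell death under Atf4. Its log2 level was -0.93 and -1.91 for Control male, -1.58 for the library labelled Control female 1 and -0.58 for Control female 2. On the Western diet it was -1.90 and -1.41 in males and -1.46 and -1.81 in females. Control male 1 and Control female 2 were the highest, and the other control arrays lay within or below the Western range. The difference was -0.39 ± 0.34 SE (limma adjusted p = 0.995, 95% interval -1.21 to 0.43). Leaving out the library labelled Control female 1 gave -0.65, leaving out Control female 2 gave -0.14 and leaving out Control male 1 gave -0.15.

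Trib3, a pseudokinase that Atf4 and Chop induce and that binds Akt, varied most. It had log2 levels of 1.87 and 3.89 for Control male, 3.80 for the library labelled Control female 1 and 3.48 for Control female 2. On the Western diet it was 2.92 and 2.96 in males and 3.42 and 2.93 in females. Control male 1 was the lowest array by far and the other 3 control arrays were the highest of all, so the range over arrays was 4.06-fold. The difference was -0.21 ± 0.45 SE (limma adjusted p = 0.999, 95% interval -1.30 to 0.89). Without Control male 1, whose smooth muscle markers were high, it was -0.71 ± 0.21 SE (limma unadjusted p = 0.0195, adjusted p = 0.990), and without Control male 2 it was 0.30. The part of the smooth muscle content in this was not tested.

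Hspa5 encodes BiP, the Hsp70 chaperone of the ER lumen that also holds the sensors inactive. Its log2 level was 6.37 and 6.24 for Control male, 6.15 for the library labelled Control female 1 and 6.68 for Control female 2. On the Western diet it was 6.17 and 6.87 in males and 6.61 and 6.07 in females. The highest and the lowest array were both on the Western diet. The difference was 0.07 ± 0.25 SE (limma adjusted p = 0.999, 95% interval -0.54 to 0.67), which leaves room for a change of up to 1.59-fold upward or 1.45-fold downward.

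Hsp90b1, the Hsp90 of the ER (Grp94), had log2 levels of 5.46 and 5.16 for Control male, 5.94 for the library labelled Control female 1 and 5.04 for Control female 2. On the Western diet it was 5.37 and 5.84 in males and 5.65 and 4.91 in females. The highest array was the library labelled Control female 1 and the lowest Western female 2, and the arrays labelled Control female lay 0.91 apart. The difference was 0.04 ± 0.29 SE (limma adjusted p = 0.999, 95% interval -0.67 to 0.76), and its sign turned with scan day as a block (-0.12), with slide as a block (-0.24) and within slide 1 (-0.19).

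The other folding factors had differences close to 0. Sdf2l1, a partner of BiP and its DnaJ co-chaperones, had log2 levels between 1.99 and 2.46 on the control and between 2.03 and 2.47 on the Western diet, with a difference of 0.04 ± 0.18 SE. The disulphide isomerase gene Pdia4 had 1.44 to 2.12 on the control and 1.52 to 1.99 on the Western diet (difference 0.05 ± 0.20 SE). Dnajb9, a BiP co-chaperone that represses Ire1, had 1.12 to 1.89 and 1.38 to 2.01 (difference 0.05 ± 0.23 SE), and its second probe gave -0.06 ± 0.25 SE. The limma adjusted p was 0.999 for each of these 3 genes.

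Herpud1 encodes a membrane protein that organises the degradation of misfolded ER proteins. It had log2 levels of 3.05 and 3.92 for Control male, 3.56 for the library labelled Control female 1 and 3.57 for Control female 2. On the Western diet it was 4.24 and 3.79 in males and 3.69 and 3.76 in females. All 4 Western arrays lay above 3 of the control arrays, and Control male 2 lay above 3 of the Western arrays. The difference was 0.34 ± 0.24 SE (limma adjusted p = 0.995, 95% interval -0.24 to 0.92). It was 0.13 without Control male 1 and 0.56 ± 0.19 SE without Control male 2 (limma unadjusted p = 0.0317, adjusted p = 0.930), 0.66 within slide 1 and 0.18 between the females of slide 3.

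**Figure D2:**
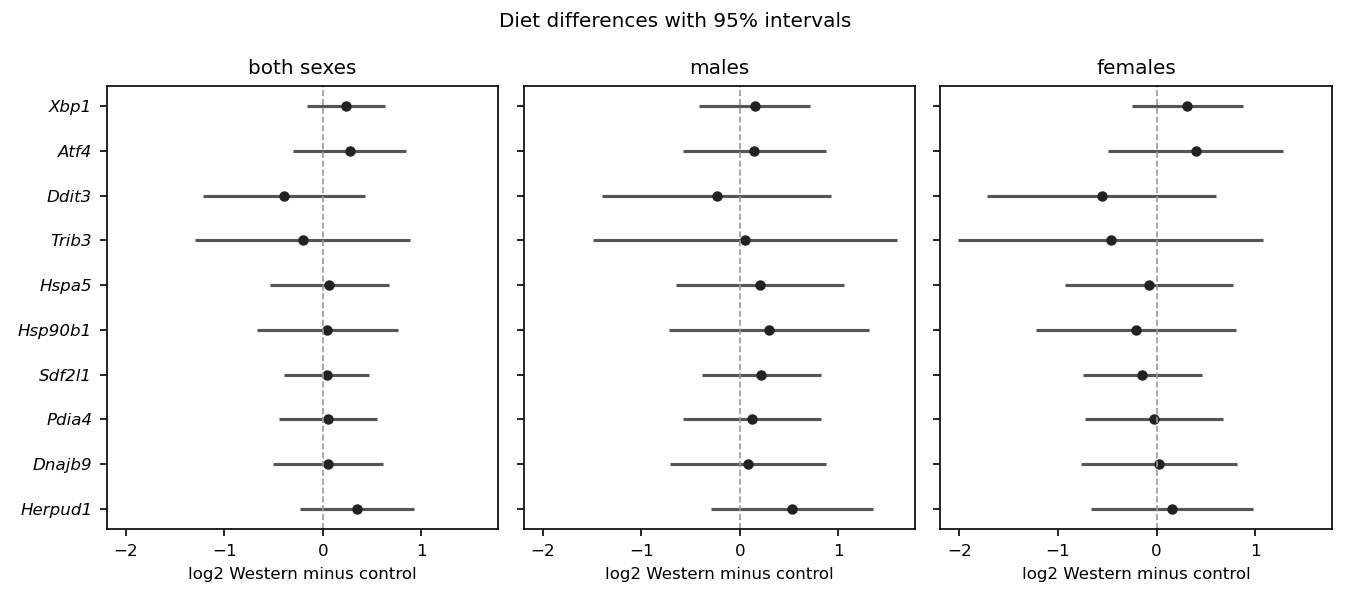
Log2 difference, Western minus control diet (x axis), for the 10 genes (y axis) over both sexes, in males and in females. Points are limma estimates and bars 95% intervals. Each bar crosses 0, and those of Ddit3 and Trib3 are among the widest.

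For 8 of the 10 genes the 95% interval of the diet difference lay within a 2-fold change in either direction. Atf4 was counted there without its marked spot. The exceptions were Ddit3 and Trib3, whose lower bounds were -1.21 and -1.30. The like share over all genes was not computed, so this count is not read as a trait of the members. The largest upper bound was that of Herpud1, 1.90-fold. The largest gap between the 2 arrays of a group ran from 0.33 for Xbp1 to 2.02 for Trib3, both in Control male, and exceeded the diet difference for all 10 genes, as it did for 97.1% of all genes tested. The SE of the members (median 0.23) was like that of all genes (median 0.23). With the library labelled Control female 1 left out, the diet difference was -0.07 for Hspa5, -0.08 for Dnajb9, 0.27 for Hsp90b1, 0.16 for Pdia4, 0.08 for Sdf2l1 and -0.13 for Trib3, and the median over the members was 0.12. Without Western female 2, whose fat cell markers were high, that median was 0.17, with Hspa5 at 0.20 and Hsp90b1 at 0.23; the part of fat cells in this was not tested. The median was below 0 without Western male 2 (-0.07) and without Western female 1 (-0.06, over 9 members, as Atf4 had no estimate). With slide as a block, the median over the members turned from 0.05 to -0.10. It was 0.14 within slide 1 and, without Atf4, -0.22 between the females of slide 3, where the median of all genes was -0.22 as well.

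Within the sexes, 0 of 10 members had an adjusted p under 0.05 for diet by limma, in males or in females (background 0% in each). In males 0 of 10 members had an unadjusted p under 0.05 by limma (background 1.3%), 9 of 10 differences were above 0 (background 48.7%), and the median was 0.15 against -0.01 over all genes. The male differences ran from -0.23 (Ddit3) to 0.53 (Herpud1, ± 0.34 SE, adjusted p = 0.9997). In no member were both Western male arrays above or below both Control male arrays. This count leaves out Atf4, as do the like counts that follow; over all genes 12.1% lay wholly above and 13% wholly below.

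In females 0 of 10 members had an unadjusted p under 0.05 (background 5.1%), 4 of 10 differences were above 0 (background 36.8%), and the median was -0.05 against -0.11 over all genes. Xbp1 (0.31 ± 0.23 SE) and Herpud1 (0.16 ± 0.34 SE) were higher on both Western female arrays than on both arrays labelled Control female, as were 9.59% of all genes. Trib3 (-0.47 ± 0.63 SE) was lower on both, as were 21.8% of all genes. The limma adjusted p of these 3 was between 0.954 and 0.999, and each rests partly on the library whose Y-linked signal goes against its label. With that library left out the differences were 0.19 for Xbp1, 0.15 for Herpud1 and -0.31 for Trib3. The test of the difference between the sexes (females minus males) gave 0 of 10 members with an unadjusted p under 0.05 (background 1.62%), with values from -0.52 ± 0.89 SE (Trib3) to 0.25 ± 0.45 SE (Atf4). That difference was below 0 for 8 of 10 members (background 65.1%).

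The second comparison set females against males over both diets. By limma 0 of 10 members had an adjusted p under 0.05 (background 0%) and 0 of 10 an unadjusted p under 0.05 (background 3.85%). Differences (female minus male) ran from -0.28 ± 0.23 SE for Dnajb9 to 0.50 ± 0.45 SE for Trib3, with 5 above 0 and 5 below (background 62.3% above). The median was -0.02 against 0.08 over all genes. The Trib3 difference was -0.01 without Control male 1, 1.00 without Control male 2 and 0.42 when the library labelled Control female 1 was left out. Leaving out that library, whose Y-linked signal was at the male level, turned the median over the members to 0.06. It turned Hspa5 from -0.04 to 0.10 and moved Ddit3 from 0.18 to 0.43 and Hsp90b1 from -0.07 to -0.30. Dnajb9 moved to -0.14 and Pdia4 from 0.20 to 0.09.

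On single arrays many members lay on the same side of their mean. Relative to each gene's mean over the arrays, 9 of 10 members were above it on Western male 2 and 7 of 10 on Western female 1. On Western female 2, 1 of 9 measured members was above its mean, and 3 of 10 were on Control male 1 and on Western male 1. Of all genes tested, 47% were above their mean on Western male 2, 47.5% on Western female 1, 42.8% on Western female 2, 47.1% on Control male 1 and 41.3% on Western male 1. Both ends of this order thus lay among arrays of the same diet. Western male 2 was the only array on its slide.

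**Figure D3:**
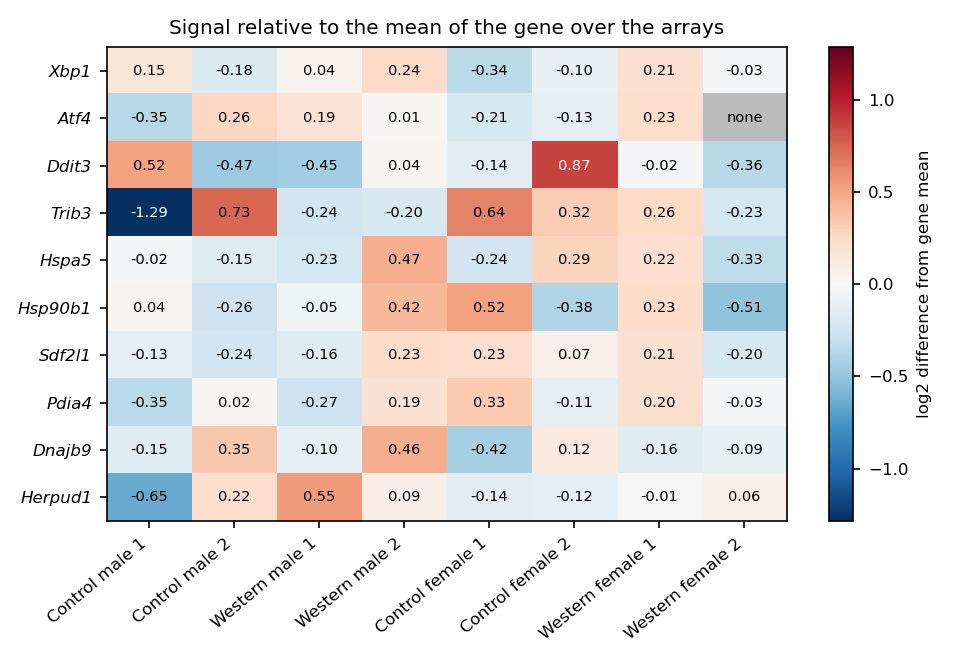
Log2 signal of each gene (rows) on each array (columns) minus the mean of the gene over the arrays, with red above and blue below that mean; the grey cell is the marked Atf4 spot. Western male 2 is above the mean for 9 of 10 genes, and the deepest blue is Trib3 on Control male 1 (-1.29).

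Some pairs of members followed each other over arrays. Sdf2l1 and Hsp90b1 had similar profiles over the 8 arrays (Pearson r = 0.76, Spearman rho = 0.79), as did Sdf2l1 and Pdia4 (r = 0.71, rho = 0.52). Atf4 and Herpud1 had r = 0.83 (rho = 0.82) over the 7 arrays with both. Ddit3 ran opposite to Herpud1 (r = -0.69, rho = -0.69) and to Atf4 (r = -0.67, rho = -0.64, 7 arrays). Both Atf4 values rest on its brighter probe without the marked spot of Western female 2. That spot read 4.25, the lowest reading of the probe. How far r depends on it, or holds for the second Atf4 probe, was not computed. Of the 45 pairs of members, 27 had r above 0, 9 above 0.5 and 3 below -0.5. The like shares over all pairs of genes were not computed, so whether members followed each other more than other genes is not known. These are descriptions without a test: the points share RNA, label and scaling, and without Control female 2 the values for Sdf2l1 with Hsp90b1 and Ddit3 with Herpud1 were 0.90 and -0.88.

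Of 12392 other named genes well above background on all arrays, Creld2 ranked second in likeness to Hspa5 over the 8 arrays (r = 0.94, and 0.99 over 7 arrays without Control female 2). Creld2 encodes an ER protein induced by ER stress. Its log2 level was 3.90 and 3.78 for Control male, 3.62 for the library labelled Control female 1, 4.51 on Control female 2, 3.65 and 4.39 in Western males and 4.05 and 3.63 in Western females. As for Hspa5, Western male 2 and Control female 2 were the highest, and Western female 2, Western male 1 and the library labelled Control female 1 the lowest. The others of the 8 most alike were Ifih1 (r = 0.96), Spryd7, Cdk2ap2, Jmjd1c, Rrbp1, a ribosome-binding protein of the ER membrane, Pigf and Spty2d1 (r = 0.91).

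The other ER folding and transport genes were a list chosen with earlier results of these data known, and 34 of them could be compared. Their median r with Hspa5 was 0.33 against 0.16 over all genes, and 5 of the 34 (14.7%) had r above 0.7, against 3.99% of all genes. Those were Creld2, the signal peptidase subunit Spcs2 (0.90), Sel1l, an adaptor of ER-associated degradation (0.86), Txndc11 (0.83), and Manf, a secreted ER stress factor (0.80). Others of the 34 ran opposite to Hspa5, with Txndc5 (-0.77) and Edem2 (-0.64) the lowest. For 16 genes with the longer promoter element, some of them also among the 34, the median r was 0.32. Of these, 1 (6.25%) had r above 0.7, which was Creld2 again. For 33 genes of eIF2 alpha kinases and Atf4 targets the median r with Hspa5 was -0.13, and for 10 cytosolic heat shock genes 0.13. Over arrays, the mean of the 34 genes relative to their own means was highest on Western male 2 (0.16, 27 of 34 above) and lowest on Western female 2 (-0.13, 10 of 34 above), as for the 10 members (0.20 and -0.19, though Control male 1 was lower still at -0.22).

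**Figure D4:**
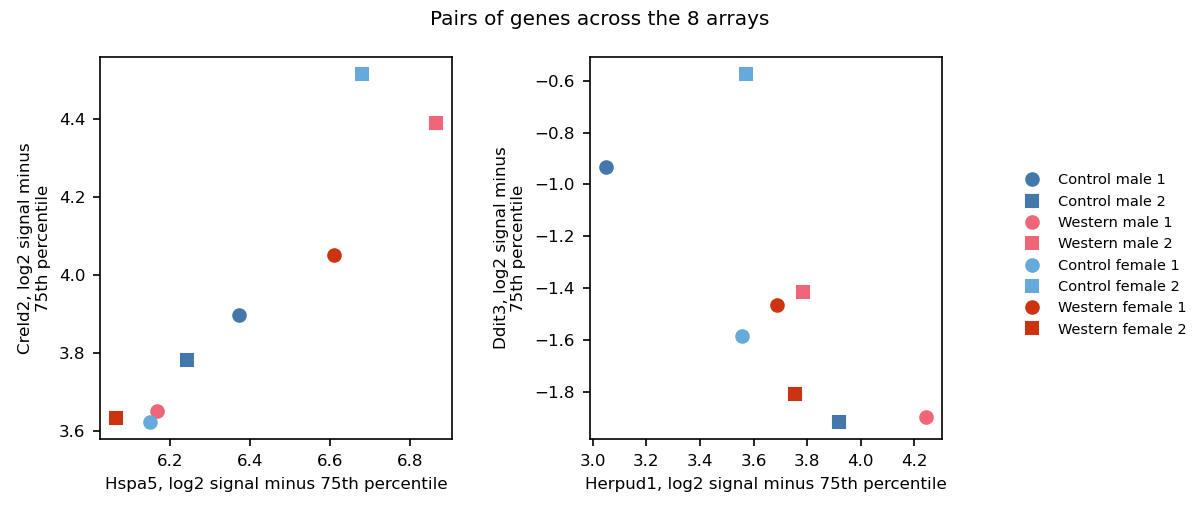
Log2 signal minus the array's 75th percentile for Creld2 against Hspa5 and for Ddit3 against Herpud1, 1 point per array, coloured by group (circle replicate 1, square replicate 2). Creld2 climbs with Hspa5 (r = 0.94), while Ddit3 falls with Herpud1 (r = -0.69), with control arrays at both ends of the Ddit3 scale.

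**Figure D5:**
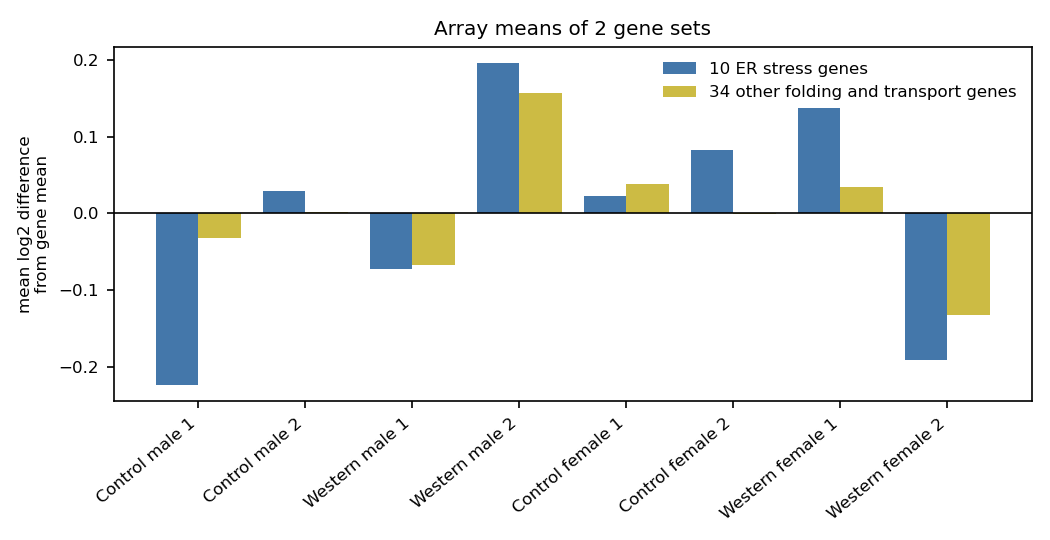
Mean log2 difference from the gene mean (y axis) of the 10 ER stress genes and of 34 other ER folding and transport genes on each array (x axis). In both sets Western male 2 is the highest array, and Western female 2 lies at -0.19 and -0.13.

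For Ddit3 the 8 most alike were Dpf3 (r = 0.97), Cacna1h (0.96), Tmem266, Cysrt1, Zdhhc1, Mmp23, Spata25 and Kcnd3 (0.93), none of them on the ER stress lists. Without Control female 2, where Ddit3 was highest, their r lay between 0.86 and 0.94.

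The wider pathway was described for the diet by the same fit. Over all genes tested, 40.5% of diet differences were above 0, 4.27% of genes had an unadjusted p under 0.05, and the median was -0.06. Of 35 measured genes of ER folding and transport, 0 passed an adjusted or unadjusted p of 0.05 by limma, 18 were above 0 and 17 below, and the median was 0.01. The smallest p belonged to Derl3, a component of ER-associated degradation that secretory cells express (-0.46 ± 0.30 SE), followed by Ssr3 (0.18 ± 0.15 SE) and Stt3a (0.15 ± 0.13 SE), which act in translocation and N-glycosylation. Among the 20 measured of 37 genes with the longer promoter element, 10 of them on these lists or members, the median was -0.03 and 8 were above 0; 1 had an unadjusted p under 0.05 (Ptgdr2, -1.34 ± 0.45 SE).

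Of 15 sensors, their proteases and related factors, 0 passed either threshold, with 5 above and 10 below 0 (background 40.5% above). Ern1, which encodes the sensor Ire1 alpha, had -0.24 ± 0.19 SE, Mbtps1 and Mbtps2, the proteases that cut Atf6, 0.19 ± 0.18 SE and 0.37 ± 0.24 SE (Mbtps2 well above background on 5 arrays), and the survival gene Bcl2 -0.51 ± 0.26 SE. Of 35 eIF2 alpha kinases, phosphatase subunits and Atf4 targets, 0 passed either threshold. Of these 11 were above and 24 below 0 (background 40.5% above), with a median of -0.09 against -0.06 over all genes. Sesn2, an inhibitor of mTor complex 1, had -0.25 ± 0.14 SE and each Western array lay below each control array, as for 2.29% of all genes. Ppp1r15a, the phosphatase subunit that ends eIF2 alpha phosphorylation, had 0.32 ± 0.22 SE. Vldlr had -0.34 ± 0.23 SE. Of 10 cytosolic heat shock genes, 0 passed either threshold (median 0.04), with Hsp90aa1 at -0.21 ± 0.28 SE and Hspa8 at 0.08 ± 0.19 SE.

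In the sex comparison 0 genes of these 4 lists (35, 15, 35 and 10 measured) passed the adjusted threshold by limma (background 0%). Only 1 of them had an unadjusted p under 0.05, against 3.85% of all genes tested. That gene was Vldlr (-0.58 ± 0.23 SE, female minus male, limma adjusted p = 0.906).

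Markers of secretory cells varied beside these genes. The summed linear level of 11 goblet cell markers ran from 1538 to 1663 times the 75th percentile over the control arrays and from 1244 to 1662 over the Western arrays. For diet, 2 of the 11 were above 0 and 9 below (median -0.10), against 40.5% above 0 and a median of -0.06 over all genes. Fcgbp, a mucus protein gene, was lower on each Western array (6.73 to 7.21) than on each control array (7.33 to 7.54), as were 2.29% of all genes. Its difference was -0.41 ± 0.15 SE (limma unadjusted p = 0.0361, adjusted p = 0.995). The sum of 8 Paneth cell markers ran from 1189 to 1473 on the control and from 1160 to 1628 on the Western diet.

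For 9 plasma cell markers the sum was 70.7 and 74.7 for Control male and 60.3 and 34.6 for Western male, so both Western male arrays were lower. It was 36.3 for the library labelled Control female 1, 28.7 for Control female 2 and 38.0 and 66.3 for Western female, so both Western female arrays were higher. Jchain, the brightest of the 9 (log2 level 4.19 to 5.87), weighed most in this sum. With each marker weighted alike, the mean relative to the marker means was 0.37 and 0.13 for Control male. It was 0.24 and -0.42 for Western male, so the male arrays overlapped. It was -0.16 for the library labelled Control female 1, -0.22 for Control female 2 and -0.11 and 0.16 for Western female. The difference between the sexes in the sum or this mean was not tested. Of 15 markers of pancreatic acinar cells, which are rich in ER chaperones, 8 passed the filter. Nearly all of their summed level was Zg16, which goblet cells express too; the other 7 summed to between 8.26 and 26.6. The enzyme genes Cpa1, Cpb1, Cela2a, Prss2, Try4 and Try5 were each well above background on 1 array and Pnlip on 0. Western male 2, the highest array for 4 of the 10 members, had a plasma cell sum of 34.6 and a goblet cell sum of 1662. The part of these cell types in the members' values was not tested.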

How the data were processed

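Per the file headers, the deposited intensity values are processed signals of Agilent Feature Extraction 10.7.3.1 from single-colour scans of design 026655. The authors' further steps are not given in the sources used here. Each signal was divided by the array's 75th percentile over non-control spots and put on the log2 scale. Spots marked as outliers (94 to 216 an array) were left out, repeated probes averaged, and 25737 probes kept that 2 or more arrays had well above background. The probe with the highest mean stood for a gene; 26412 of 39429 probes were named through RefSeq accessions (GRCm38.p6). The 4 group means came from a limma fit (limma 3.58.1, R 4.3.3) with 4 residual and 2.01 prior degrees of freedom and Benjamini-Hochberg adjustment over 21307 genes at 0.05 and 95% intervals. The fit was tested on simulated data with independent noise and known diet changes. These held no slide, scan day, atypical or mislabelled array, so the test does not cover those.

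The members and lists were chosen with earlier results of these data known. Named genes were all members by every probe; of each of the 4 other stress lists, genes among the 3 with the smallest p in each direction; the 8 genes most like Hspa5 and Ddit3; defining cell markers; and Ddx3y and Eif2s3y. Creld2, Spcs2, Sel1l, Txndc11, Manf, Ptgdr2 and Fcgbp were named after their values were seen, as members of small counts. Txndc5 and Edem2 were named likewise as the lowest in likeness to Hspa5 on their list, and Jchain as the brightest plasma cell marker. Sis was also named after its values were seen, for its difference between the labelled diets. Alternatives covered background correction, normalization, filter, probe choice, slide, scan day, replicate number and leaving out each array.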

Additional observations from a re-analysis of the deposited data

How the results depend on the processing

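Across all alternatives run, 0 members passed an adjusted p of 0.05 in any comparison; the smallest adjusted p by limma was 0.461 for diet and 0.388 for diet in females. Signs turned in several settings, and the cause was not tested. With the mean over probes (for Atf4 the dimmer probe alone) the sign turned in diet for Atf4 (-0.22) and Dnajb9 (-0.0027), in diet in males for Atf4 (-0.29), in diet in females for Atf4 (-0.16) and Dnajb9 (-0.058), in sex for Atf4 (-0.16). With slide as a block the sign turned in diet for Hsp90b1 (-0.24), Hspa5 (-0.12), Pdia4 (-0.088) and Sdf2l1 (-0.12), in diet in males for Dnajb9 (-0.014), Hsp90b1 (-0.26), Hspa5 (-0.16), Pdia4 (-0.15), Sdf2l1 (-0.091) and Xbp1 (-0.00032), in diet by sex for Dnajb9 (0.039), Hsp90b1 (0.056), Hspa5 (0.088) and Pdia4 (0.13), in sex for Atf4 (-0.040), Hsp90b1 (0.21) and Hspa5 (0.15). With scan day as a block the sign turned in diet for Hsp90b1 (-0.12) and Sdf2l1 (-0.019), in diet in males for Hsp90b1 (-0.029), in sex for Hsp90b1 (0.092). Within slide 1 the sign turned in diet for Sdf2l1 (-0.026), Pdia4 (-0.022), Hsp90b1 (-0.19) and Trib3 (0.33). Between the females of slide 3 the sign turned in diet for Hspa5 (-0.61), Dnajb9 (-0.22), Sdf2l1 (-0.27) and Hsp90b1 (-0.13). After quantile normalization the sign turned in diet in males for Trib3 (-0.0089), in sex for Atf4 (-0.078). With normexp background correction on median signals, chosen after seeing the data, the sign turned in diet in females for Pdia4 (0.057). With marked outlier spots kept, chosen after seeing the data, the sign turned in diet in females for Atf4 (-0.10), in diet by sex for Atf4 (-0.25), in sex for Atf4 (-0.24). Leaving out 1 array at a time turned the sign in diet for Dnajb9 (-0.087 to 0.20), Hsp90b1 (-0.18 to 0.27), Hspa5 (-0.11 to 0.24), Pdia4 (-0.063 to 0.17), Sdf2l1 (-0.064 to 0.14) and Trib3 (-0.71 to 0.30). Leaving out 1 array at a time turned the sign in diet in males for Atf4 (-0.16 to 0.46), Ddit3 (-0.72 to 0.26), Dnajb9 (-0.20 to 0.37), Hspa5 (-0.14 to 0.56), Pdia4 (-0.10 to 0.36), Trib3 (-0.96 to 1.06) and Xbp1 (-0.0099 to 0.32). Leaving out 1 array at a time turned the sign in diet in females for Dnajb9 (-0.25 to 0.30), Hsp90b1 (-0.66 to 0.24), Hspa5 (-0.35 to 0.20), Pdia4 (-0.25 to 0.20) and Sdf2l1 (-0.35 to 0.063). Leaving out 1 array at a time turned the sign in diet by sex for Atf4 (-0.060 to 0.56), Ddit3 (-0.83 to 0.18), Dnajb9 (-0.34 to 0.22), Herpud1 (-0.81 to 0.063), Hspa5 (-0.63 to 0.064), Pdia4 (-0.38 to 0.080), Trib3 (-1.53 to 0.49) and Xbp1 (-0.0028 to 0.32). Leaving out 1 array at a time turned the sign in sex for Atf4 (-0.15 to 0.16), Ddit3 (-0.072 to 0.43), Herpud1 (-0.32 to 0.11), Hsp90b1 (-0.30 to 0.16), Hspa5 (-0.21 to 0.14) and Trib3 (-0.0077 to 1.00). Over all genes, leaving out 1 array gave 0 to 394 genes past the threshold for diet in females (394 without the library labelled Control female 1, and 2 without Control female 2, Ddx3y and Uty), 0 to 2 for diet by sex and 0 to 3 for sex, against 0 with all arrays; for diet the count was 0 throughout. Genes with an unadjusted p under 0.05 for diet numbered 910 with all arrays, 3190 without the library labelled Control female 1, 581 without Western male 2 and 506 with slide as a block. With the replicate number as a block, the diet median over the members was 0.05, 0 genes passed and 1013 had an unadjusted p under 0.05; deviations of same-numbered arrays correlated between -0.12 and 0.35, over 0.1 in 2 of 6 pairs of groups, so the numbers were not taken to pair the arrays. With 2 arrays a group, the number of arrays limits the precision.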
